A study of Mus musculus with 9 samples.

Results

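Periostin (Postn), tenascin C (Tnc), tenascin XB (Tnxb) and thrombospondin 3 (Thbs3) are matricellular proteins, and their RNA was followed through 3 groups of sorted mouse stromal cells. The 4 genes were taken by their names from a table of 8329 genes, and all 4 were among the 1948 genes tested, those that reached 1 FPKM in 3 or more of the 9 libraries. FPKM are the fragments of a gene divided by the length of its transcripts and by the total of the library. Cells negative for CD45, Ter119 and CD31 and positive for CD51 and CD200 were sorted from wild-type (WT) C57BL/6J mice. BM-MSCs (bone marrow mesenchymal stem cells) and P-SSCs (periosteal skeletal stem cells) were taken at day 0 from undisturbed bones, and graft P-SSCs were taken from the periosteum 3 days after bone transplantation, in which a whole femur is placed under the skin of another mouse. No sham-operated group or graft BM-MSC library was analysed here, and the age of the mice is not in the labels. Each group had 3 libraries from distinct mice, and by its label replicate 2 was a pool in both day 0 groups. The RNA was therefore measured in groups of cells, in which fewer cells that express a gene and less RNA per cell cannot be told apart.

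Matricellular proteins are secreted into the extracellular matrix, where they bind both structural fibres and receptors on cells, and they change how cells attach, move and receive growth factors rather than bearing load themselves. Periostin takes its name from the periosteum, the fibrous sheet around bone, and binds collagen I, tenascin C and integrins that contain the alpha v chain. That chain is CD51, which was used for the sort. Tenascin C is known for its appearance at sites of injury and in embryonic tissue, and it is also part of the marrow stroma, where it supports blood-forming cells. Tenascin X, the product of Tnxb, lies along collagen fibrils, and its loss in people gives a form of Ehlers-Danlos syndrome with lax joints and skin. Thrombospondin 3 belongs to the subgroup of thrombospondins that form pentamers, and mice without it have altered skeletal maturation.

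Of the 4 genes, only Tnc had its highest level in BM-MSCs, only Postn had its highest level in graft P-SSCs, and Tnxb and Thbs3 had theirs in P-SSCs. Tnc and Tnxb ran in opposite directions at both steps. From BM-MSCs to P-SSCs, Tnc was 27.8 times lower, while Tnxb went from 1 fragment in 3 libraries to a mean of 47.4 FPKM. After transplantation, Tnc was 5.49 times higher and Tnxb 11.2 times lower than in P-SSCs. No library of one group overlapped with those of another for any of the 4 genes, which was true of 292 of the 1948 genes tested (15% of them).

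**Figure D1:**
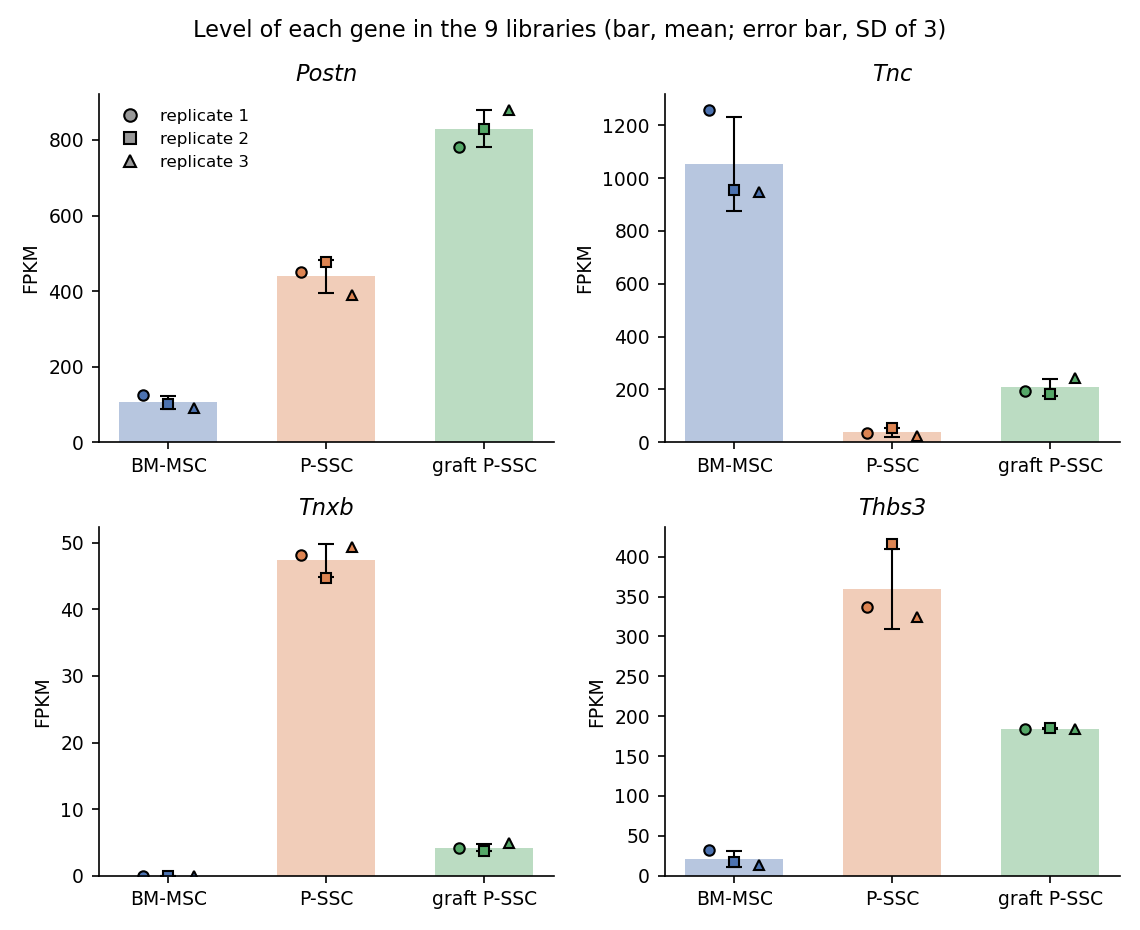
Level of Postn, Tnc, Tnxb and Thbs3 in each library (y axis, FPKM, a separate linear scale for each gene) by group (x axis), with bars for the mean of 3 libraries and error bars for the SD. Tnc falls from a mean of 1053 FPKM in BM-MSCs to 37.9 in P-SSCs, Tnxb is seen mainly in P-SSCs, and Postn is highest in graft P-SSCs with a mean of 830.3.

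Sequences before a start of Postn, Tnc and Thbs3 are shown to give the basal promoter letters they hold. They were read from RefSeq for the build GRCm38.p6, in which all 4 genes had a window. Capitals mark the motifs, which were searched on both strands. The TATA box was searched as TATATAA and the GC box as GGGCGG. The CCAAT box was searched by its own letters, the motif of AP-1 factors as TGANTCA and that of TEAD factors as GGAATG. The Postn stretch holds the last 100 bases before the start nearest to that in the file, at chr3:54361007-54361106 (plus strand), the Thbs3 stretch the last 100 bases at chr3:89215080-89215179 (plus strand), and the Tnc stretch 30 bases at chr4:64046947-64046976 (minus strand) before the second of its listed starts, which lies 79 bases inside the gene as the file has it.
Postn: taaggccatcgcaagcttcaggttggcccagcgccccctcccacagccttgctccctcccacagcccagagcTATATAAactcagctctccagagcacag
Tnc: aaggagctcccTATATAAgcctgccaaagc
Thbs3: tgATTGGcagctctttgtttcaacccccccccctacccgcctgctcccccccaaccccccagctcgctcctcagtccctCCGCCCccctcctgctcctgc
The TATA box began 28 bases before this start of Postn and 29 bases before this start of Tnc, and TATATAA was found on either strand in 3.04% of 32851 windows of 250 bases before a start. RefSeq lists another start of Postn 1842 bases upstream of that in the file, and the window before it held none of the 5 motifs. The window before the Tnc start that matches the file held no TATATAA and a GC box that began 167 bases before it, and the same GC box lies 246 bases before the second start. In Thbs3 a GC box (32.7% of windows) and a CCAAT box (33.8%), both on the opposite strand, were found and no TATATAA. For Tnxb the window before the start in the file held 1 AP-1 motif (6.75% of windows), but RefSeq begins this gene 10082 bases further upstream, so its stretch was not shown. GGAATG (12.6% of windows) was found in none of the windows of the 4 genes. These matches describe letters and do not show that a factor binds.

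Postn (ENSMUSG00000027750) lies on the plus strand at chr3:54361109-54391037 of GRCm38 and codes for a secreted protein with fasciclin domains. In BM-MSCs its level was 124.7, 100.5 and 90.6 FPKM in replicates 1, 2 and 3. In P-SSCs it was 450.7, 476 and 390.5 FPKM, and in graft P-SSCs 782, 829 and 879 FPKM. The lowest graft library was thus above the highest P-SSC library, and the lowest P-SSC library was above every BM-MSC library. Postn was 4.17-fold higher in P-SSCs than in BM-MSCs, with means of 439 ± 44.1 and 105 ± 17.5 FPKM (SD, n = 3 libraries each). In graft P-SSCs (830.3 ± 48.4 FPKM, SD, n = 3) it was 1.89-fold higher than in P-SSCs and 7.89-fold higher than in BM-MSCs. It was the only one of the 4 genes whose graft level moved further from BM-MSCs than the P-SSC level was.

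The oligonucleotide pair with which the study measured Postn by quantitative PCR shows which Postn transcripts that assay reads.
Postn forward: cctgcccttatatgctctgct
Postn reverse: aaacatggtcaataggcatcact
Both were found in 4 of the 9 annotated Postn transcripts, all 4 of them coding and out of 5 coding ones, with a product of 299 bases. The sequencing values count fragments of all 9 transcripts together, so the isoforms that the pair amplifies cannot be separated in them.

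Tnc (ENSMUSG00000028364) lies on the minus strand at chr4:63959785-64047015 and codes for a large glycoprotein of joined arms with EGF-like and fibronectin type III repeats. Its level was 1258, 956 and 946 FPKM in the BM-MSC libraries. In P-SSCs it was 36.6, 55.4 and 21.7 FPKM, and in graft P-SSCs 194, 184 and 245 FPKM. Every graft library thus lay above every P-SSC library and below every BM-MSC library. In BM-MSCs Tnc took 0.754%, 0.573% and 0.567% of all fragments and ranked between 12 and 17 among the 1948 genes tested by FPKM, while in P-SSCs its rank was between 252 and 578 and in graft P-SSCs between 84 and 109. The mean was 1053 ± 177 FPKM in BM-MSCs, 37.9 ± 16.9 in P-SSCs and 208 ± 32.4 in graft P-SSCs (SD, n = 3 each). Its spread was widest in P-SSCs, where the SD was 44.5% of the mean and counting error alone would give 1.54%.

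Tnxb (ENSMUSG00000033327) lies on the plus strand at chr17:34670535-34719815, and its protein is the longest of the tenascins in mouse. In the BM-MSC libraries its level was 0, 0.00492 and 0 FPKM, which is 0, 1 and 0 fragments. In P-SSCs it was 48.2, 44.6 and 49.4 FPKM, from 10273, 8560 and 10140 fragments. In graft P-SSCs it was 4.11, 3.70 and 4.84 FPKM, from 784, 852 and 939 fragments. The P-SSC libraries were close to each other (47.4 ± 2.47 FPKM, SD, n = 3) and the graft libraries lay far below them (4.22 ± 0.578) but well above the single fragment of BM-MSCs. The floor of 3 fragments stood at 0.0165 FPKM in BM-MSC replicate 1 and 0.0152 FPKM in replicate 3. The 95% exact interval of a count of 0 reaches 3.69 fragments. Pooled over the libraries and divided by their totals, the fragments of P-SSCs and BM-MSCs stood in a ratio of 27659 (95% exact interval 4964 to 1092500), and those of graft P-SSCs and BM-MSCs in a ratio of 2439 (437 to 96381). These intervals rest on 1 BM-MSC fragment and cover counting error only.

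Thbs3 (ENSMUSG00000028047) lies on the plus strand at chr3:89215180-89226837, on the same chromosome as Postn. Its level was 32.0, 17.0 and 14.0 FPKM in BM-MSCs, 337, 416 and 324 FPKM in P-SSCs, and 183.8, 184.7 and 184.4 FPKM in graft P-SSCs. The graft libraries lay between the other groups without touching either. Means were 21.0 ± 9.64 FPKM in BM-MSCs, 359 ± 50.0 in P-SSCs and 184.3 ± 0.449 in graft P-SSCs (SD, n = 3 each). The SD of the graft libraries was smaller than the 2.67 FPKM that counting error alone gives, so these 3 values agree more closely than their depth can resolve. Thbs3 was 17.1-fold higher in P-SSCs than in BM-MSCs and 8.78-fold higher in graft P-SSCs than in BM-MSCs, and the graft mean was 1.95 times below that of P-SSCs.

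The comparison of P-SSCs with BM-MSCs asked what separates the periosteal cells from those of the marrow in undisturbed bone. In limma, 24.2% of the 1948 genes were called at an adjusted p (Benjamini-Hochberg over all genes tested) under 0.05, 9.8% higher and 14.4% lower in P-SSCs. Postn, Tnxb and Thbs3 were called higher and Tnc lower. On the scale of log2(FPKM + 1) the difference was 5.59 for Tnxb (SE 0.25, adjusted p = 5.43e-07) and 4.11 for Thbs3 (SE 0.26, adjusted p = 4.91e-06). For Postn it was 2.06 (SE 0.15, adjusted p = 1.34e-05) and for Tnc -4.84 (SE 0.30, adjusted p = 3.72e-06). The value of Tnxb depends on the 1 FPKM added, because its BM-MSC level is near 0. The median difference of all genes was -0.06.

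The comparison of graft P-SSCs with P-SSCs asked what had changed in periosteal cells 3 days after transplantation. Of the genes tested, 34.1% were called, 22.6% higher and 11.5% lower in graft P-SSCs, and the median of all genes was 0.26 on the log2 scale. Tnc rose by 2.51 (SE 0.30, adjusted p = 0.000223), or 2.25 above that median, and Postn by 0.92 (SE 0.15, adjusted p = 0.00156), or 0.66 above it. Tnxb fell by 3.22 (SE 0.25, adjusted p = 2.31e-05) and Thbs3 fell by 0.95 (SE 0.26, adjusted p = 0.0204), which is -3.48 and -1.21 relative to the median. The call of Thbs3 was the least firm of these: it was lost without P-SSC replicate 2 (-0.84, adjusted p = 0.0685) and without graft replicate 1, 2 or 3 (-0.95 each time, adjusted p from 0.0600 to 0.0628). The call of Postn was lost when the libraries were scaled by the median of ratios, at 0.60 (adjusted p = 0.0522).

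The remaining comparison, of graft P-SSCs with BM-MSCs, shares the graft libraries with the one before and the BM-MSC libraries with the first. It called 41.9% of the genes, 25.7% higher and 16.2% lower in graft P-SSCs, with a median of 0.28. Each of the 4 genes kept the direction it had between P-SSCs and BM-MSCs. Postn was higher by 2.98 (adjusted p = 7.60e-07), Thbs3 by 3.16 (adjusted p = 1.75e-05) and Tnxb by 2.38 (adjusted p = 8.41e-05), while Tnc was at -2.33 (adjusted p = 0.000222), 5.07 times below BM-MSCs. If the way from P-SSCs to BM-MSCs on this scale is taken as 100%, the graft libraries stood on average at 51.8% of it for Tnc, 57.5% for Tnxb and 23.1% for Thbs3, and at -44.7%, on the far side of P-SSCs, for Postn. For Tnxb this share also rests on the 1 FPKM added.

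**Figure D2:**
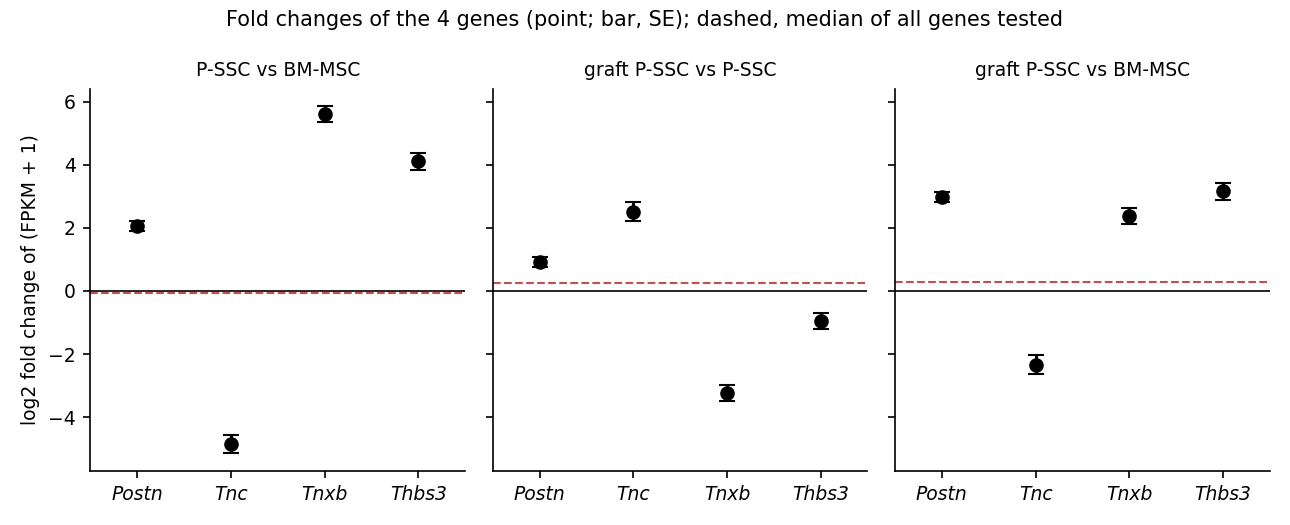
Differences of the 4 genes in the 3 comparisons (y axis, log2 fold change of FPKM + 1; points, limma estimates; error bars, SE; dashed line, median of the 1948 genes tested). Tnc and Tnxb lie on opposite sides of the median in every panel, at -4.84 and 5.59 for P-SSCs against BM-MSCs and at 2.51 and -3.22 for graft P-SSCs against P-SSCs.

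The levels of both tenascins can be read as a ratio within each library, which a single scaling factor per library leaves as it is. In P-SSCs the Tnc level was 0.759, 1.24 and 0.439 times that of Tnxb in replicates 1, 2 and 3, so the genes were near each other and their order differed between libraries. In graft P-SSCs the ratio was 47.3, 49.8 and 50.6, and all 3 libraries gave nearly the same value although Tnc itself ranged from 184 to 245 FPKM. In BM-MSC replicate 2 it was 194178, which rests on 1 Tnxb fragment, and in the other BM-MSC libraries it is not defined because Tnxb was at 0. Put as a share, Tnxb made up 56.8%, 44.6% and 69.5% of the summed FPKM of the pair in P-SSCs, 2.07%, 1.97% and 1.94% in graft P-SSCs, and at most 0.000515% in BM-MSCs. The sum of the pair was 1053 ± 177 FPKM in BM-MSCs, 85.3 ± 14.4 in P-SSCs and 212 ± 33.0 in graft P-SSCs (SD, n = 3 each), so the fall of Tnxb in the grafts was smaller in FPKM than the rise of Tnc. The pair was chosen for its opposite courses, so the ratio is given as a description and was not tested.

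**Figure D3:**
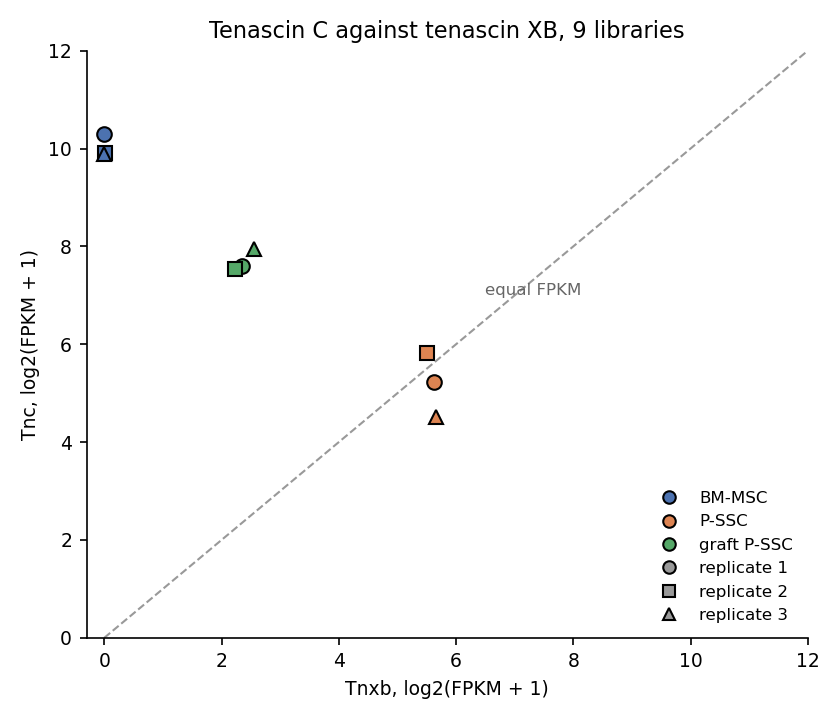
Tnc (y axis) against Tnxb (x axis), both as log2(FPKM + 1), with one point for each of the 9 libraries and a dashed line of equal FPKM. The P-SSC libraries lie around the line, the graft libraries lie well above it at a ratio between 47.3 and 50.6, and the BM-MSC libraries lie at the left edge, where Tnxb is at or near 0.

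How far apart the 4 genes lie within a group depends on the transcript length by which fragments are divided. The order of their means was the same in each group with both lengths compared here. The deposited FPKM used the mean length of all annotated transcripts of a gene, short noncoding ones included. For Thbs3, with 11 transcripts of which 3 are coding, this length was 1366 bases, against 3190 for its longest coding transcript. It was 2275 against 3205 bases for Postn, 5991 against 7106 for Tnc and 10795 against 12209 for Tnxb. With the longest coding transcript as the length, Thbs3 levels are 2.34 times lower and those of Tnxb only 1.13 times lower, while comparisons of a gene between groups are not touched. In graft P-SSCs, Tnc (208 FPKM) and Thbs3 (184.3 FPKM) overlapped in the deposited values, and with the longest coding transcripts Tnc had a mean of 175 and Thbs3 of 78.9 without overlap. On that length the order was Tnc (888), Postn (74.7), Thbs3 (8.99) and Tnxb (0.00145) in BM-MSCs. In P-SSCs it was Postn (312), Thbs3 (154), Tnxb (41.9) and Tnc (31.9), where Tnxb and Tnc overlapped. In graft P-SSCs it was Postn (589), Tnc (175), Thbs3 (78.9) and Tnxb (3.73). Postn was thus the most abundant of the 4 per length in both periosteal groups, and Tnc in the marrow cells.

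P-SSC replicate 3 had the lowest Postn, Tnc and Thbs3 and the highest Tnxb of its group. The same library had 108.3 FPKM of Mbp and 8.43 of Sox10, the 2 of 5 listed Schwann cell markers that could be read. Only 1 of them, Mbp, was among the genes tested. Both were at most 27.8 and 1.20 in the other P-SSC libraries, at most 2.83 and 0.432 in the graft libraries, and at most 19.5 and 0.0968 in the BM-MSC libraries. Without it, the 4 genes were called in the same direction in all 3 comparisons, and between graft P-SSCs and P-SSCs the differences were 0.84 for Postn, 2.17 for Tnc, -3.19 for Tnxb and -1.02 for Thbs3 (adjusted p = 0.0162 for the last). Blood cell genes were higher in the marrow libraries: the 3 of 16 listed markers that could be read (Ptprc, Lyz2 and Hba-a2) summed to between 892 and 2810 FPKM in BM-MSCs, 16.4 and 79.0 in P-SSCs and 28.4 and 84.6 in graft P-SSCs. Ptprc, which codes for the CD45 used to exclude blood cells, was at most 1.35 FPKM in BM-MSCs and at 0 in P-SSCs. Within BM-MSCs, replicates 1, 2 and 3 had 143, 539.5 and 608 FPKM of Lyz2 and 748, 618 and 2201 FPKM of Hba-a2. Lpl, the single adipocyte marker of 6 that could be read, which marrow stromal cells also express, ranged from 589.7 to 939 FPKM in BM-MSCs, from 95.8 to 164 in P-SSCs and from 13.4 to 16.9 in graft P-SSCs. The part of these cells in the levels of the 4 genes was not tested. The markers listed for the sorted stromal cells themselves, and for endothelial, muscle, tendon, cartilage, bone-forming and smooth muscle cells, were not analysed here.

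Among all genes tested, those whose log2(FPKM + 1) followed a member most closely over the 9 libraries were named by their Pearson r, which describes 9 points that form 3 groups and share the difference between those groups. For Postn they were Vim (r = 0.996), the intermediate filament of mesenchymal cells, Anxa2 (0.994) and S100a4 (0.993). Vim had means of 448, 1663 and 3131 FPKM in BM-MSCs, P-SSCs and graft P-SSCs. For Tnc they were Nradd (0.984), C5ar1 (0.971), the receptor for complement C5a, and Fcgr3 (0.952), an Fc receptor, of which the last pair are genes of myeloid cells. C5ar1 averaged 11.0 FPKM in BM-MSCs, 0 in P-SSCs and 1.67 in graft P-SSCs. For Tnxb they were Myzap (0.993), Bdh2 (0.986) and Gpnmb (0.984), and Gpnmb averaged 0.0220, 109 and 6.23 FPKM in the same order of groups. For Thbs3 they were Ackr3 (0.993), a scavenging receptor for the chemokine CXCL12, Pla2g4a (0.986) and the cartilage matrix gene Cilp (0.980), which averaged 0.0313, 332 and 134 FPKM. Between the tenascins r was -0.983, which describes the pair that was chosen for its opposite courses. Between Tnxb and Thbs3 it was 0.911, and between Postn and Tnc -0.631.

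Of a list of 36 matricellular genes, 8 were in the table and all 8 were tested, which leaves 4 beside the members. Ecm1, which codes for a secreted glycoprotein of skin and bone matrix, was the most abundant of them, with 1031, 1430 and 831 FPKM in BM-MSCs, 7623, 9787 and 6580 in P-SSCs and 1237, 1461 and 1287 in graft P-SSCs. It was called higher in P-SSCs than in BM-MSCs (2.88 on the log2 scale, adjusted p = 1.43e-05) and fell by 2.57 in the grafts (adjusted p = 2.92e-05), the same directions as Tnxb and Thbs3. Wisp1, a member of the CCN family of growth factor binding proteins, had 27.9, 35.5 and 75.2 FPKM in BM-MSCs, 11.5, 15.6 and 9.57 in P-SSCs and 65.8, 46.3 and 60.6 in graft P-SSCs. It was lower in P-SSCs than in BM-MSCs (-1.73, adjusted p = 0.00508) and rose by 2.16 in the grafts (adjusted p = 0.00133), the same directions as Tnc. Spon1, which codes for F-spondin, was lower in P-SSCs than in BM-MSCs (-2.54, adjusted p = 0.00615) and in graft P-SSCs than in BM-MSCs (-3.29, adjusted p = 0.00104), and its difference between graft P-SSCs and P-SSCs was -0.75 (adjusted p = 0.315), or -1.41 without P-SSC replicate 2 (adjusted p = 0.0172). Cyr61, another CCN gene, ranged from 452 to 667 FPKM over the 9 libraries and was not called in any of the 3 comparisons, but under 3 of 19 alternative settings it was called between graft P-SSCs and BM-MSCs (from 0.39 to 0.51). Over all 8 genes, 4 were higher and 3 lower in P-SSCs than in BM-MSCs (median 1.05, against -0.06 over all genes, of which 24.2% were called), and 3 rose and 3 fell in the grafts (median -0.20, against 0.26 over all genes, of which 34.1% were called). The list holds the 4 members, so these counts are no separate evidence on them.

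Receptors of these proteins were represented by 4 of 29 listed genes. Sdc1, the heparan sulfate proteoglycan syndecan 1, followed the course of Tnc, with 335, 175 and 224 FPKM in BM-MSCs, 3.85, 4.32 and 35.0 in P-SSCs and 225, 206 and 211 in graft P-SSCs. It was lower in P-SSCs than in BM-MSCs (-4.60, adjusted p = 0.000573) and rose by 4.46 in the grafts (adjusted p = 0.000712). Between graft P-SSCs and BM-MSCs it was not called (-0.14, adjusted p = 0.875, and 0.11 without BM-MSC replicate 1). Egfr, which the EGF-like repeats of tenascin C can bind, fell by 1.04 in the grafts (adjusted p = 0.00218). Sdc4, another syndecan, and Cd36, a receptor for thrombospondins, were not called, and Cd36 was at most 2.62 FPKM in any library. Between graft P-SSCs and BM-MSCs, Cd36 was at 0.73 (adjusted p = 0.169), and was called with GC correction (1.33, adjusted p = 0.0433) and without BM-MSC replicate 1 (1.14, adjusted p = 0.0366).

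Collagens and their partners were represented by 4 of 42 listed genes, and 3 were higher in P-SSCs than in BM-MSCs with none lower (9.8% and 14.4% over all genes tested). Col6a3, a chain of collagen VI, had 21.5, 20.0 and 17.2 FPKM in BM-MSCs, 143, 114 and 83.2 in P-SSCs and 193, 163 and 239 in graft P-SSCs, the same order of groups as Postn. It rose by 2.45 from BM-MSCs to P-SSCs (adjusted p = 3.71e-05) and by 0.82 in the grafts (adjusted p = 0.0203), and the latter call was lost under 4 of 19 alternative settings. The small leucine-rich proteoglycans Ogn and Prelp, which bind collagen, fell in the grafts by 2.03 (adjusted p = 0.000273) and 1.34 (adjusted p = 0.000160). P4ha1, a subunit of the enzyme that hydroxylates collagen prolines, rose there by 1.41 (adjusted p = 0.00166). The call of Prelp between P-SSCs and BM-MSCs (0.49, adjusted p = 0.0400) was lost under 12 of the 19.

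Of 40 listed matrix proteases and inhibitors, 6 were in the table and 4 were tested. Serpine2, an inhibitor of serine proteases, was very high in BM-MSCs (7448, 5799 and 5126 FPKM), lower in P-SSCs (360, 308 and 346) and lowest in graft P-SSCs (37.7, 31.4 and 32.8), and it was called in all 3 comparisons. Plau, the urokinase whose activity Serpine2 can block, was at 0 in every BM-MSC library, at 14.7, 18.1 and 7.74 FPKM in P-SSCs and at 2.81, 3.30 and 4.01 in graft P-SSCs, and fell by 1.67 in the grafts (adjusted p = 0.00444). Adamts4 rose in the grafts by 1.68 (adjusted p = 0.00764, not called under quantile normalization, at 1.35 with adjusted p = 0.0636), while Adamts5, which also cleaves proteoglycans, was higher in P-SSCs than in BM-MSCs (2.33, adjusted p = 0.000848) and at -0.91 in the grafts (adjusted p = 0.0705, called under 4 of the 19 alternatives).

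Of 55 listed regulators of these genes, 11 were tested. Between P-SSCs and BM-MSCs 5 were higher and none lower (9.8% and 14.4% over all genes tested). The 5 became 3 without BM-MSC replicate 1 or 2 and with only these groups fitted, and 1 gene (Tead3 or Ets1, named after their values were seen) was called lower under 4 of the 19 alternative settings. In the grafts 3 rose and none fell (22.6% and 11.5% over all genes), and Rela (-0.66, adjusted p = 0.0515) was called lower under 5 of the 19. Without P-SSC replicate 3 the 3 became 5, by Egr1 (2.76, adjusted p = 9.78e-06) and Smad3 (2.23, adjusted p = 0.0497). The 5 that were higher in P-SSCs than in BM-MSCs were Egr1, Il13ra1, Il6, Fosl2 and Notch2, of which Fosl2 and Notch2 were named after their values were seen. The call of Notch2 was lost under 3 of the 19. Il13ra1, a chain of the receptor for the cytokines IL-4 and IL-13 that raise periostin in several tissues, had 2.17, 2.38 and 1.93 FPKM in BM-MSCs, 24.0, 13.0 and 33.0 in P-SSCs and 56.4, 58.5 and 53.0 in graft P-SSCs. It rose by 2.86 from BM-MSCs to P-SSCs (adjusted p = 0.000101) and by 1.32 in the grafts (adjusted p = 0.00964), the same order of groups as Postn. Il6 was higher in P-SSCs than in BM-MSCs (4.59, adjusted p = 8.44e-05) and at 0.21 in the grafts (adjusted p = 0.769). The sign of the latter turned under 3 of the 19, to -0.40 without P-SSC replicate 3. Egr1, an immediate early transcription factor, was at 514 FPKM in P-SSC replicate 3 against 54.0 and 37.3 in the other P-SSC libraries, and its call between P-SSCs and BM-MSCs (2.67, adjusted p = 0.0318) was lost under 7 of the 19 alternatives. The others that rose in the grafts were Srf (1.96, adjusted p = 0.0464, lost under 15 of the 19) and Ets1 (2.04, adjusted p = 0.0105), the latter named after its values were seen. Smad3, a transducer of TGF-beta signals, ranged from 0.197 to 41.2 FPKM among the P-SSC libraries and was not called with all libraries in the fit.

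**Figure D4:**
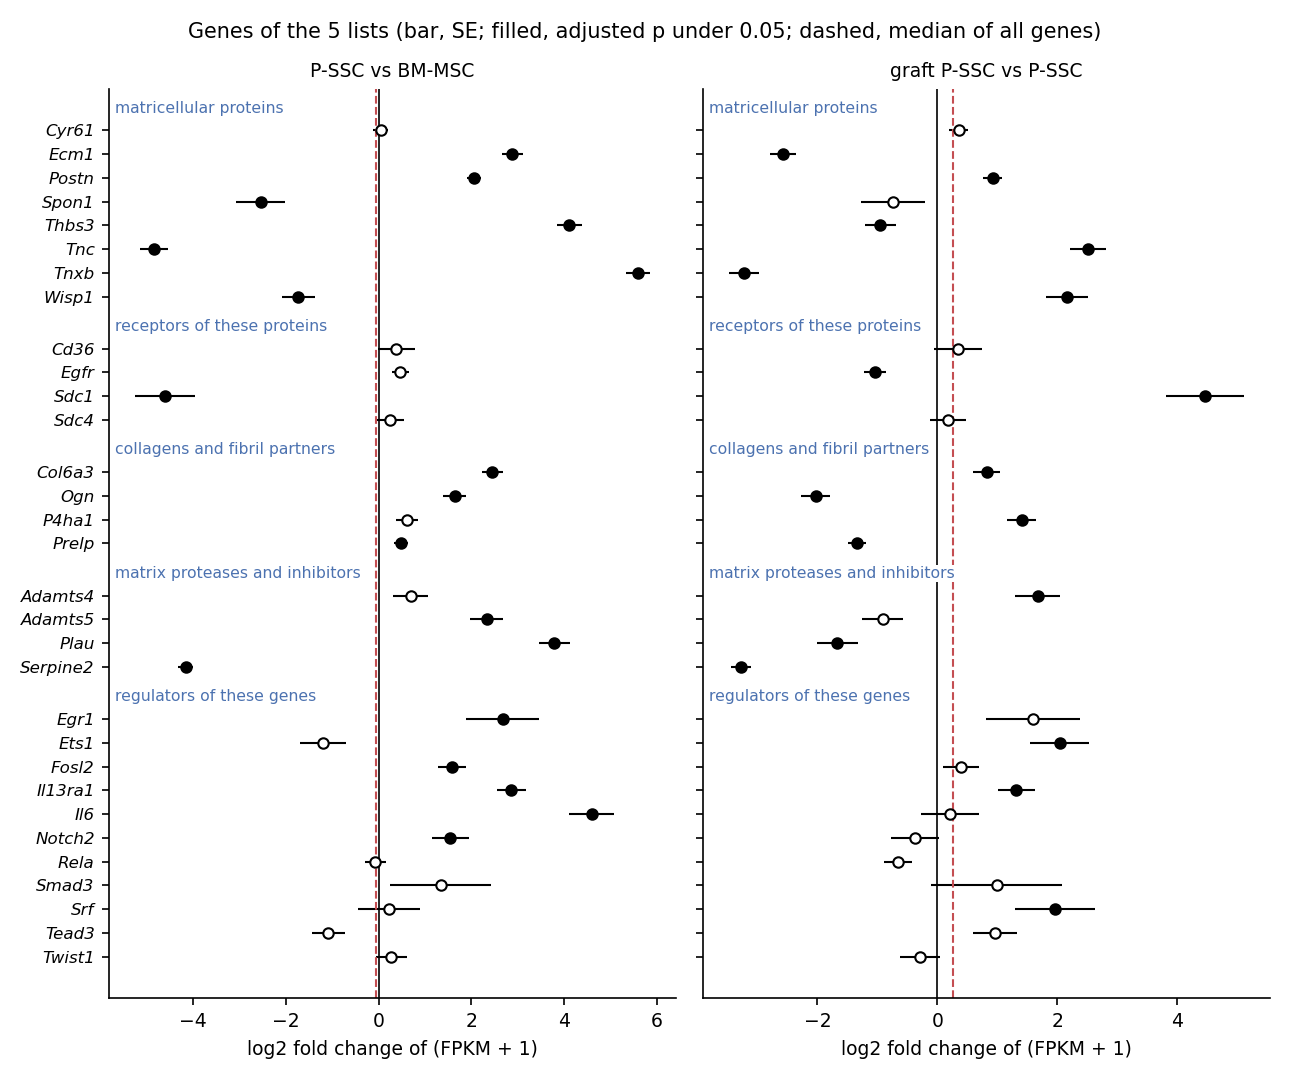
Differences of the 31 tested genes of the 5 lists (y axis) between P-SSCs and BM-MSCs and between graft P-SSCs and P-SSCs (x axes, log2 fold change of FPKM + 1; error bars, SE; filled points, adjusted p under 0.05; dashed lines, median of all genes). Tnc, Wisp1 and Sdc1 are among the genes that lie to the left in the first panel and to the right in the second. Tnxb, Thbs3 and Ecm1 are among those that do the reverse.

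Other genes lie close to 3 of the members. Gm43737 lies 2016 bases upstream of Thbs3 on the same strand and was at most 2.15 FPKM in any library. The exons of Thbs3 share 318 of 4823 bases with Mtx1 on the opposite strand, which was not analysed here. Those of Tnc share 176 of 7772 bases with the antisense gene 8030451A03Rik, which was at most 1.41 FPKM in any library, and those of Tnxb share 3 bases with the pseudogene Cyp21a2-ps. The use of strand in the counting is not stated, so reads from such shared bases cannot be assigned to one strand.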

How the data were processed

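The deposited values are FPKM. The authors sequenced poly-A RNA of sorted cells, mapped the reads to GRCm38 with STAR (2.6.1d) and counted fragments with featureCounts (1.5.0-p3), per the labels, without further normalization between libraries. The annotation release is not given in the sources used here.

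The length behind each FPKM was the mean length of the gene's annotated transcripts in GENCODE, rounded down. With it, 94.6% of 22664 values above 0 were whole fragments (within 0.001), including every value of the 4 genes, and the totals by which the authors divided were 16890241 to 21315438 fragments per library. Among genes with several transcripts the share was 93.6%, against 3.58% with the gene length that the table lists. Floors (3 fragments) and intervals (95%, exact) cover counting error only, since PCR copies are not separate molecules.

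log2(FPKM + 1) of the 1948 genes with FPKM of at least 1 in at least 3 libraries was fitted with limma (3.58.1, R 4.3.3; lmFit, contrasts, eBayes with trend) in 1 fit of 9 libraries. Fold changes on this scale understate those of low genes. Calls were made at an adjusted p (Benjamini-Hochberg) under 0.05. The members and lists were chosen with earlier results of these data known. Named were the 4 genes, at most 6 further tested genes per list by mean FPKM, the 3 genes most alike by Pearson r, and annotated neighbours within 10000 bases. Replicate numbers come from the titles, and no source ties a number to a shared mouse or day, so the main fit had no replicate block. Alternatives changed the pseudocount, filter, scaling, libraries fitted, block, trend and GC correction, and left out each library. One alternative, limma-voom on the recovered fragments of 1831 genes, was chosen after seeing the data. Promoter windows came from RefSeq (GRCm38.p6). No protein sequence was used here.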

Additional observations from a re-analysis of the deposited data

How the results depend on the processing

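Under 19 alternatives, 9 of them leaving out a library, the 4 genes gave 228 values in 3 comparisons. Of these, 223 kept their direction and their side of the threshold, 5 kept only their direction, and 0 reversed. Of the 5, 1 was Postn in graft P-SSCs against P-SSCs with libraries scaled by the median of ratios (0.60, adjusted p = 0.0522, over a range of 0.000320 to 0.0522 for all its alternatives). The other 4 were Thbs3 in the same comparison without P-SSC replicate 2 or without any 1 graft library (from -1.02 to -0.84 over all libraries left out, adjusted p of the 4 from 0.0600 to 0.0685, and between 0.00208 and 0.0685 for all its alternatives). The cause of these losses was not tested. The fitted difference of Tnxb from BM-MSCs reached 13.64 for P-SSCs and 10.13 for graft P-SSCs under other pseudocounts or counts of fragments, against 5.59 and 2.38. With GC correction, Postn in graft P-SSCs was at 1.48 against P-SSCs and 3.84 against BM-MSCs. In the main fit these were 0.92 and 2.98. The mean log2 ratio of Tnc over Tnxb in graft P-SSCs, 5.62 as deposited, was 5.81 after quantile normalization and 5.32 with 1 FPKM added to both genes. In graft P-SSCs against P-SSCs, 441 genes were higher and 224 lower as deposited, 312 and 302 with the median of ratios, and 312 and 355 with quantile normalization. Against BM-MSCs the split was 501 and 315, 388 and 364, and 387 and 405. Counts of calls over both directions stayed within 1.5 times under each alternative. Of those in 1 direction, the lower calls of graft P-SSCs against P-SSCs under quantile normalization (355) and without graft replicate 1 (149), against 224, moved further, and so did the higher calls of graft P-SSCs against BM-MSCs without graft replicate 1 (319) or 2 (321), against 501. Libraries with the same replicate number did not deviate together (r from -0.035 to 0.132 for P-SSCs and BM-MSCs, from -0.434 to -0.087 for graft P-SSCs and P-SSCs, and from -0.047 to 0.042 between BM-MSCs and graft P-SSCs). Deviations from means of 3 libraries cannot exclude a shared mouse or day, so whether the numbers pair the samples stays unknown. With the replicate block 441, 621 and 755 genes were called, against 472, 665 and 816, and the block changed no call of the 4 genes. Among the 4 genes, depth limits Tnxb in BM-MSCs, where 0 or 1 fragment was seen.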
